A study of Homo sapiens with 12 samples.

Results

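The genes described here build the outer surface and the cell-to-cell contacts of an epithelial cell: keratins, surface mucins, desmosome and tight junction proteins, polarity proteins, membrane serine proteases and the factors that keep these genes on. Members were the genes of a list of 42 symbols that the array annotation names, each read by its brightest probe set (the highest mean over the 12 arrays). Of the 42, 40 were measured, out of 19775 genes on the array. F11R had no probe set of its own in the annotation used and the 1 probe set of ESRP2 was shared with other genes, so neither was analysed here. The measured members were 8 keratins, 5 mucins and surface glycoproteins, 8 desmosome and cornified plaque genes, 5 tight junction genes, 5 factors of epithelial transcription and splicing, 4 membrane serine proteases and inhibitors, and 5 genes of polarity and apical transport.

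RNA came from Ishikawa cells, an established human line of endometrial adenocarcinoma origin, and was read on 12 Affymetrix U133 Plus 2.0 arrays. Every culture was first transfected for 48 h, either with a negative control siRNA or with a GPR54-specific siRNA, and was then kept for 24 h with 10 µM metastin-10 or with a control peptide. Each of the 4 combinations of siRNA and peptide has 3 arrays, and no group went without a transfection or a peptide. Metastin-10, or kisspeptin-10, is the short C-terminal fragment of the KISS1 product, and GPR54, encoded by KISS1R, is its receptor. The design addressed the response to metastin-10 and its dependence on that receptor. The labels call the arrays of a group biological replicates without naming separate cultures, so p-values measure the spread between these arrays, which may be technical. All of the cells are 1 cell line, and the labels describe no rescue of the receptor and no second siRNA.

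KISS1R, the targeted gene, did not follow the siRNA label. Its log2 level was 9.39, 9.32 and 9.14 under control siRNA and 9.46, 9.45 and 9.36 under GPR54 siRNA, both with control peptide. With metastin-10 it was 8.43, 8.42 and 8.35 under control siRNA, against 9.60, 9.42 and 9.28 under GPR54 siRNA. Under control siRNA it was lower with metastin-10 than with control peptide (-0.88, SE 0.10, limma adjusted p = 0.00213). The GPR54 siRNA label thus came with a level that was not lower with control peptide (difference 0.14, SE 0.10, limma adjusted p = 1) and was higher with metastin-10 (1.03, SE 0.10, adjusted p = 0.000391). The arrays are therefore called "labelled GPR54 siRNA" throughout, and every direction between the siRNA labels rests on that label. The 3 arrays low in KISS1R are those labelled control siRNA with metastin-10, so the metastin-10 differences under control siRNA rest on the labels of the same 3 arrays.

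Simple epithelia line ducts, glands and the uterine cavity. Their keratins pair, a type I with a type II chain, into filaments that anchor at desmosomes, while tight junctions seal the space between cells and the Crumbs and Par complexes separate the apical from the basal membrane. Mucins such as MUC1 coat the apical face, and in the endometrium this coat is known as a barrier to the implanting embryo. Grainyhead-like and ETS-family factors hold much of this programme on, and ESRP1 sets the epithelial pattern of splicing.

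The start regions of genes that passed the threshold in at least 1 comparison are shown so that their letters can be compared. The RefSeq promoter table (GRCh38.p14) held entries for 20 of the 40 measured members, among them MUC1, CD24 and DSC2 of the 5 genes that passed; KRT19 and MUC20 had none. For each gene the 250 bases before its first listed start are given 5′ to 3′ on the gene's strand, in lower case, with searched motifs in capitals. The motifs, searched on both strands, were the E-box CACCTG (or CAGGTG), bound by zinc finger repressors of epithelial genes, ACGTG (or CACGT), the core of the hypoxia response element, GGAATG (or CATTCC), the TEAD core, and AACCNGGTT, the grainyhead-like site. The MUC1 window is chr1:155192916-155193165 on the minus strand, that of CD24 chr6:106975628-106975877 on the minus strand and that of DSC2 chr18:31102422-31102671 on the minus strand.
MUC1: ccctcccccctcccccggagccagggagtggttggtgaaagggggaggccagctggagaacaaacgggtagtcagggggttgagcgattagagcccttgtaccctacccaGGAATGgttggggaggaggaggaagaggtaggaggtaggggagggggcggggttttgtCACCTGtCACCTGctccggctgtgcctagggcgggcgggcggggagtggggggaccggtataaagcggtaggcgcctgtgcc
CD24: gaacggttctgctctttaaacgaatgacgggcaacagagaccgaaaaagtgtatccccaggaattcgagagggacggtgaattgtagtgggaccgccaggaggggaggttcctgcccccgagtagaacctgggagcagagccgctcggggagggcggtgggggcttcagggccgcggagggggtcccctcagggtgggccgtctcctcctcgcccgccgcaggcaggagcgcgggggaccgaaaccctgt
DSC2: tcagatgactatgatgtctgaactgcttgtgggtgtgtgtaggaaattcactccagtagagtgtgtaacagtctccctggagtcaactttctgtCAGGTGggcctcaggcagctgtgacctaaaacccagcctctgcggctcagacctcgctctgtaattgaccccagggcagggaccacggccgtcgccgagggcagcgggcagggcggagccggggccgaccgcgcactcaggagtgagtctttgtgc
MUC1 held GGAATG at -140 and CACCTG at -82 and -75, counted in bases from the start, DSC2 held CAGGTG at -156, and CD24 held none of the motifs in this window. Over all 35116 listed promoters, 17.5% held the E-box, 18.5% ACGTG, 11.9% GGAATG and 0.202% AACCNGGTT. Over first listed starts, 9 of the 20 members (45%) held the E-box, beside 17.5% of 27305 genes, 5 (25%) held ACGTG, beside 18.7%, 1 (5%) held GGAATG, beside 11.9%, and 0 held AACCNGGTT, beside 0.209%. These are matches of letters, not binding sites.

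General epithelial markers were at high levels in this line. All 7 general epithelial markers measured (EPCAM, KRT8, KRT18, KRT19, CDH1, CLDN4 and ESRP1) had means between 9.67 and 13.99, above the median probe set level of 5.16. Of 7 measured markers of Müllerian and endometrial epithelium, PAX8 was at 10.81, SOX17 at 10.84, EMX2 at 10.51, MSX1 at 11.44 and ESR1 at 8.59, while PGR at 4.38 and FOXA2 at 4.81 lay below the probe set median. Markers of squamous epithelium (5 of 6), intestinal epithelium (4 of 6), leukocytes (6 of 7), stromal fibroblasts (7 of 10) and endothelium (5 of 9) were mostly under that median. Of the 6 smooth muscle markers 2 were, and COL1A1 at 9.84 was an exception among the fibroblast genes. Among the cadherins, vimentin and factors of epithelial-mesenchymal transition, CDH2 was at 11.09, S100A4 at 9.30, VIM at 8.60, FN1 at 8.40 and TWIST1 at 8.28. CDH11, SNAI1, SNAI2, ZEB1 and ZEB2 lay under the probe set median, at 2.72 to 4.84.

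In summed levels (log2 of the sum over a list, with no test), the arrays of control siRNA with metastin-10 did not overlap those of control siRNA with control peptide for 4 of the 8 lists. Of single genes 19.6% did not overlap in this comparison, and no share was computed for sums over other lists. The general epithelial list was 15.27 to 15.32 there, against 15.42 to 15.45 with control peptide (EPCAM, KRT8, KRT18, KRT19 and ESRP1 of this list are also members), and the Müllerian list 12.79 to 12.93 against 12.96 to 13.19. The squamous list, of dim genes (means 3.33 to 5.82), was 7.10 to 7.24 against 6.94 to 7.04. The smooth muscle list was 8.05 to 8.12 against 7.94 to 8.0. The fibroblast list, at 10.03 to 10.19 against 10.07 to 10.51, overlapped, as did the intestinal, endothelial and leukocyte lists. KRT19 was the only marker of the 8 lists past the threshold in that comparison, and of the 6 measured squamous markers 0 had an unadjusted p under 0.05. The part of these lists in the results below was not tested, and in RNA from whole cultures fewer cells of a type cannot be told apart from less RNA per cell.

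Arrays correlated with each other at 0.992 to 0.998 over the tested probe sets. In all groups the controls of replicate 3 differed from those of the other arrays. The mean of the 8 probe sets at the 5′ end of the poly-A spikes was 8.25 ± 0.07 (log2, SD, n = 4) in replicate 3, against 7.75 ± 0.22 in replicate 1 and 7.40 ± 0.12 in replicate 2. The beta-actin 3′ minus 5′ difference was 0.31 ± 0.04 in replicate 3, against 0.77 ± 0.09 and 0.72 ± 0.05. Each group held 1 array of each number, and the ranges of the groups overlapped. Under control siRNA the beta-actin difference ranged from 0.31 to 0.76 with metastin-10 and from 0.29 to 0.90 with control peptide. The spike mean ranged from 7.23 to 8.33 and from 7.49 to 8.20. Within a replicate number, control siRNA with metastin-10 had the lowest spike mean in replicates 1 (7.42) and 2 (7.23). In replicate 3 it had the highest (8.33). The part of these values in the results below was not tested.

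Metastin-10 under control siRNA went with lower KRT19, CD24 and MUC20. KRT19, the small type I keratin of simple epithelium, was 1.39-fold lower, CD24, a heavily glycosylated surface protein, 1.47-fold lower and MUC20, a membrane mucin, 1.39-fold lower. No member passed the threshold as higher, although 10 of the 40 differences were above 0. The set that passed as lower was 3 of 40 members, where 0.531% of the 19775 genes tested passed as lower in the same fit. The set that passed as higher was 0 of 40, where 0.0759% of genes passed as higher. The members were chosen with earlier results of these data known, so these shares are no test of the set. A gene counted as changed where its adjusted p from limma (Benjamini-Hochberg over all tested probe sets) was under 0.05. At an unadjusted p under 0.05 there were 11 members, 9 of them lower, beside 11.9% of all genes (2354 of 19775, 1385 of them lower). The arrays of the 2 peptides did not overlap in 15 of 40 members, beside 19.6% of all genes, so an absence of overlap between 3 arrays and 3 is common here.

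KRT19 was read at 12.23, 12.28 and 12.27 (log2, replicates 1 to 3) under control siRNA with control peptide and at 11.77, 11.82 and 11.77 with metastin-10. Its levels under the GPR54 siRNA label were 12.38, 12.38 and 12.35 with control peptide and 12.36, 12.41 and 12.36 with metastin-10. The 3 arrays of control siRNA with metastin-10 lay below the other 9 arrays, and the groups did not overlap. The metastin-10 difference was -0.48 (SE 0.07, 95% interval -0.63 to -0.33, limma adjusted p = 0.009).

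CD24 was read at 10.04, 10.08 and 10.05 under control siRNA with control peptide and at 9.60, 9.44 and 9.45 with metastin-10. Under the GPR54 siRNA label it was 10.19, 10.13 and 10.19 with control peptide and 10.14, 10.11 and 10.04 with metastin-10. Again the lowest arrays were those of control siRNA with metastin-10, without overlap. The difference was -0.56 (SE 0.08, adjusted p = 0.0066).

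MUC20 was read at 8.44, 8.54 and 8.60 under control siRNA with control peptide and at 7.99, 7.99 and 8.19 with metastin-10. In the arrays labelled GPR54 siRNA the levels were 8.79, 8.63 and 8.65 with control peptide and 8.75, 8.69 and 8.72 with metastin-10. The metastin-10 arrays under control siRNA were the lowest 3 of the 12, with replicate 3 nearest to the controls. The difference was -0.47 (SE 0.09, adjusted p = 0.0372).

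Leaving out single arrays ended some of these calls. CD24 kept its call without any 1 of the 12 arrays (adjusted p 0.0072 to 0.049). KRT19 lost it without control siRNA with control peptide replicate 2 (adjusted p = 0.0638) or control siRNA with metastin-10 replicate 1 (0.0504). MUC20 lost it without 9 of the 12 arrays, that is, any but control siRNA with metastin-10 replicate 3 and, of the arrays labelled GPR54 siRNA, control peptide replicate 1 and metastin-10 replicate 3 (adjusted p 0.0319 to 0.179 over the 12). With only the 6 arrays of this comparison no member passed (adjusted p of 0.093 for KRT19, 0.0732 for CD24 and 0.159 for MUC20), nor did any with replicates 1 and 2 alone (0.0706, 0.0615 and 0.0738).

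**Figure D1:**
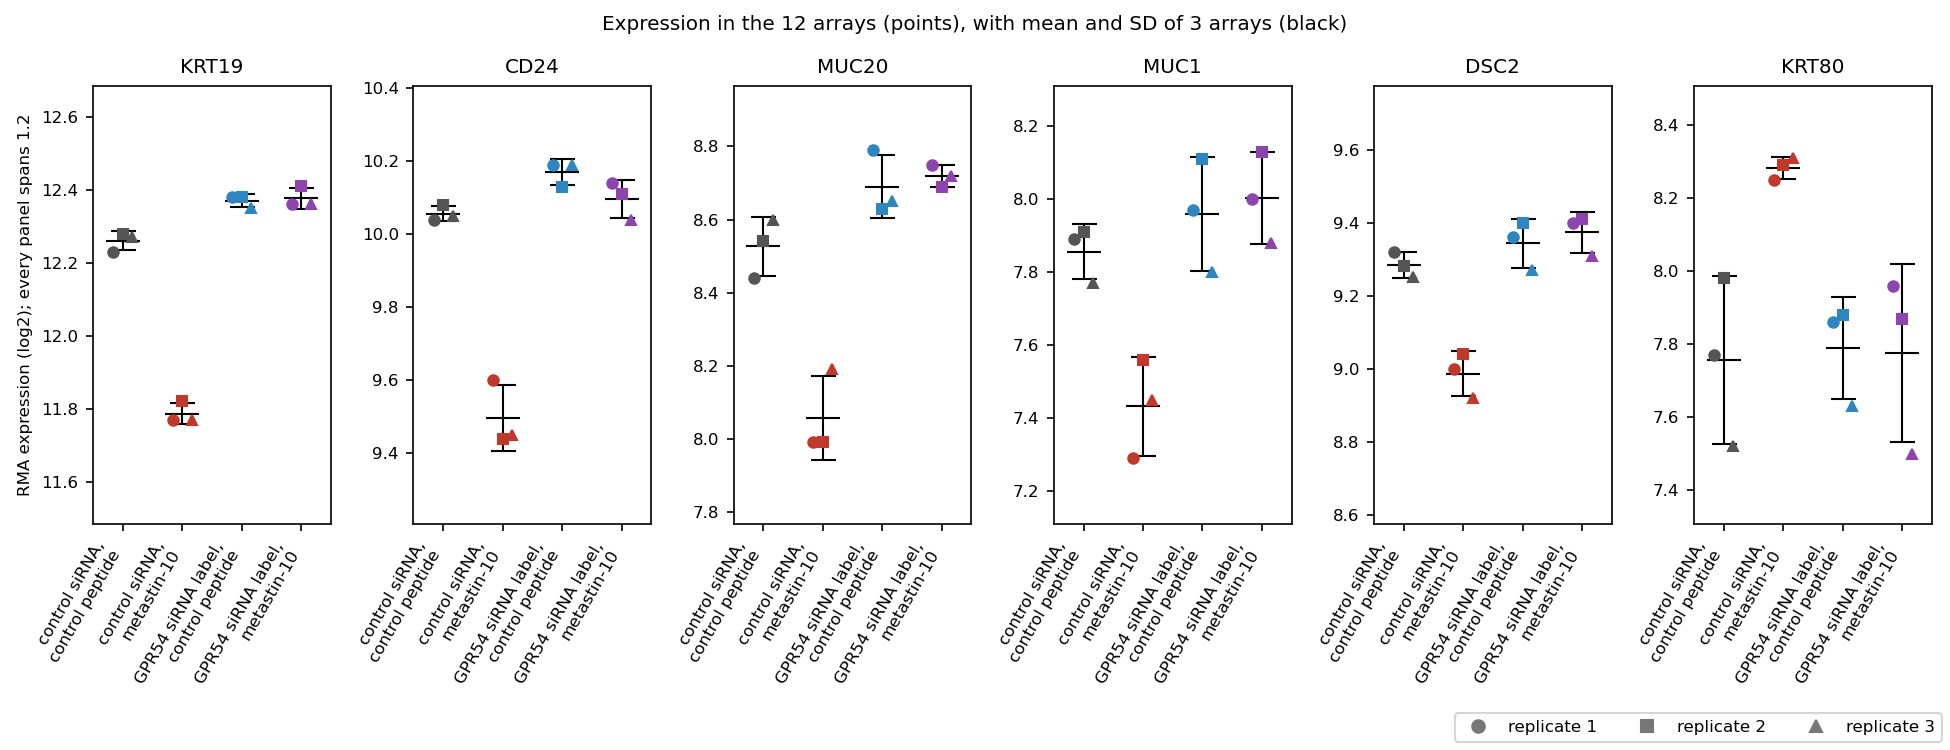
RMA expression (log2) of 6 genes in each of the 12 arrays, by group; shapes mark the replicate number, and the black bars give the mean and SD of the 3 arrays of a group. For KRT19, CD24, MUC20, MUC1 and DSC2 the arrays of control siRNA with metastin-10 are the lowest, and for KRT80 they are the highest, at 8.25 to 8.31.

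Among the keratins, 7 of 8 did not pass. KRT18, the type I partner of KRT8 in simple epithelium, differed by -0.02 (95% interval -0.17 to 0.13), and KRT8, the type II partner, by -0.20 (-0.46 to 0.06). KRT7, a type II keratin of glandular epithelium, differed by -0.05 (-0.24 to 0.14). KRT80, a type II keratin of cell margins and filaments near desmosomes, differed in the other direction from KRT19: it was 7.77, 7.98 and 7.52 with control peptide and 8.25, 8.29 and 8.31 with metastin-10 under control siRNA. KRT80 under the GPR54 siRNA label was 7.86, 7.88 and 7.63 with control peptide and 7.96, 7.87 and 7.50 with metastin-10. The 3 high arrays did not overlap the rest, but the difference of 0.52 (SE 0.14) had an adjusted p of 0.156 in the limma fit. The replicate 3 array was the lowest for KRT80 in the other 3 groups, and with an indicator of replicate 3 in the fit the same difference had an adjusted p of 0.0357.

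Among the mucins and surface glycoproteins, MUC1, the mucin of the apical coat, was 7.89, 7.91 and 7.77 with control peptide and 7.29, 7.56 and 7.45 with metastin-10 under control siRNA. Its levels in the arrays labelled GPR54 siRNA were 7.97, 8.11 and 7.80 with control peptide and 8.0, 8.13 and 7.88 with metastin-10. The difference under control siRNA was -0.42 (SE 0.11, adjusted p = 0.136), and with the replicate number as a block the adjusted p was 0.0482. EPCAM, an epithelial adhesion molecule, differed by -0.07 (-0.26 to 0.11). MUC16, the CA125 antigen, differed by 0.07 (-0.19 to 0.33) at a mean level of 4.12, under the median of all probe sets.

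None of the 8 desmosome and plaque genes passed. The nearest was DSC2, the desmocollin of simple epithelium, at 9.32, 9.28 and 9.25 with control peptide and 9.0, 9.04 and 8.92 with metastin-10 under control siRNA. DSC2 in the arrays labelled GPR54 siRNA was 9.36, 9.40 and 9.27 with control peptide and 9.40, 9.41 and 9.31 with metastin-10. The 3 low arrays again stood below all others, with a difference of -0.30 (SE 0.08, adjusted p = 0.143); with dim probe sets left out before adjustment the adjusted p was 0.0484. Its desmosomal cadherin partner DSG2 differed by -0.13 (-0.30 to 0.04) and desmoplakin, DSP, which ties keratin to the plaque, by -0.20 (-0.46 to 0.07). Plakophilin 3, PKP3, was 7.95, 8.01 and 8.07 with control peptide and 8.25, 8.15 and 8.14 with metastin-10, a difference of 0.17 (SE 0.08, adjusted p = 0.469). PKP3 in the arrays labelled GPR54 siRNA was 8.16, 8.08 and 8.09 with control peptide and 8.05, 7.98 and 8.16 with metastin-10, which overlap the levels under control siRNA with metastin-10.

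None of the 5 tight junction genes passed. TJP3, the scaffold ZO-3, was 7.79, 8.08 and 7.68 with control peptide and 7.49, 7.63 and 7.61 with metastin-10 (difference -0.28, SE 0.13, adjusted p = 0.481). TJP1, the scaffold ZO-1, differed by -0.06 (95% interval -0.36 to 0.24) and CGN, cingulin, which links the junction to actomyosin, by -0.04 (-0.37 to 0.29). MARVELD2, tricellulin, which seals the contact of 3 cells, differed by 0.11 (-0.15 to 0.37).

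All 5 measured factors of epithelial transcription and splicing were below 0 under metastin-10, with a median of -0.23, and none passed. ELF3, an ETS factor of epithelia, was 8.45, 8.54 and 8.49 with control peptide and 8.16, 8.26 and 8.33 with metastin-10, a difference of -0.24 (SE 0.08, adjusted p = 0.292). Its relative EHF was 10.66, 10.81 and 10.63 with control peptide and 10.49, 10.53 and 10.41 with metastin-10 (-0.23, SE 0.09, adjusted p = 0.386). ESRP1 was 10.90, 11.09 and 11 with control peptide and 10.65, 10.71 and 10.88 with metastin-10 (-0.25, SE 0.09, adjusted p = 0.357).

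In these 3 genes the peptides did not overlap under control siRNA, which is no call. In the arrays labelled GPR54 siRNA, ELF3 was 8.52, 8.54 and 8.41 with control peptide and 8.47, 8.53 and 8.46 with metastin-10. EHF was 10.60, 10.62 and 10.44 with control peptide and 10.64, 10.66 and 10.50 with metastin-10. ESRP1 was 11.01, 10.91 and 10.92 with control peptide and 10.98, 10.91 and 10.77 with metastin-10, so for all 3 the peptides overlapped under that label. GRHL2, a grainyhead-like factor, differed by -0.18 under control siRNA (95% interval -0.41 to 0.05).

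Of the membrane proteases and inhibitors, PRSS8, prostasin, was 8.91, 9.13 and 8.93 with control peptide and 8.69, 8.82 and 8.74 with metastin-10 under control siRNA (-0.24, SE 0.09, adjusted p = 0.396). PRSS8 in the arrays labelled GPR54 siRNA was 8.99, 9.13 and 8.96 with control peptide and 9.01, 9.16 and 8.91 with metastin-10. ST14, matriptase, which acts in a cascade with prostasin, differed by -0.03 (-0.29 to 0.23) and its inhibitor SPINT1 by 0.02 (-0.18 to 0.22). Of the polarity and transport genes, LLGL2, a basolateral polarity protein, differed by -0.13 (-0.33 to 0.07) and CRB3, the epithelial Crumbs protein, by 0.10 (-0.06 to 0.27). RAB25, a small GTPase of apical recycling, was 9.80, 9.95 and 9.89 with control peptide and 9.79, 9.80 and 9.72 with metastin-10 (-0.11, SE 0.08, adjusted p = 0.651). Neither role group had a member past the threshold.

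Over the 40 members the median difference was -0.07, with 30 below 0, beside a median of 0.01 over all 19775 genes. Taken over same-numbered arrays, the member median was -0.13, -0.10 and -0.05 in replicates 1, 2 and 3, with 28, 31 and 25 of 40 members below 0. The 95% interval of a member's difference had a median half-width of 0.20 before any adjustment over genes, and larger differences such as that of KRT80 did not pass.

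In the arrays labelled GPR54 siRNA no member passed between the peptides, and 0 had an unadjusted p under 0.05; over all genes 0% passed (limma), with 357 of 19775 (1.81%) at an unadjusted p under 0.05. Between the peptides 0 members did not overlap under this label, beside 4.68% of all genes. The differences ran from -0.15 (KRT15) to 0.05 (EHF), with a median of -0.02. KRT19 differed by 0.01 (95% interval -0.14 to 0.16), CD24 by -0.07 (-0.24 to 0.09), MUC20 by 0.03 (-0.16 to 0.22), MUC1 by 0.04 (-0.19 to 0.27) and DSC2 by 0.03 (-0.13 to 0.19).

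**Figure D2:**
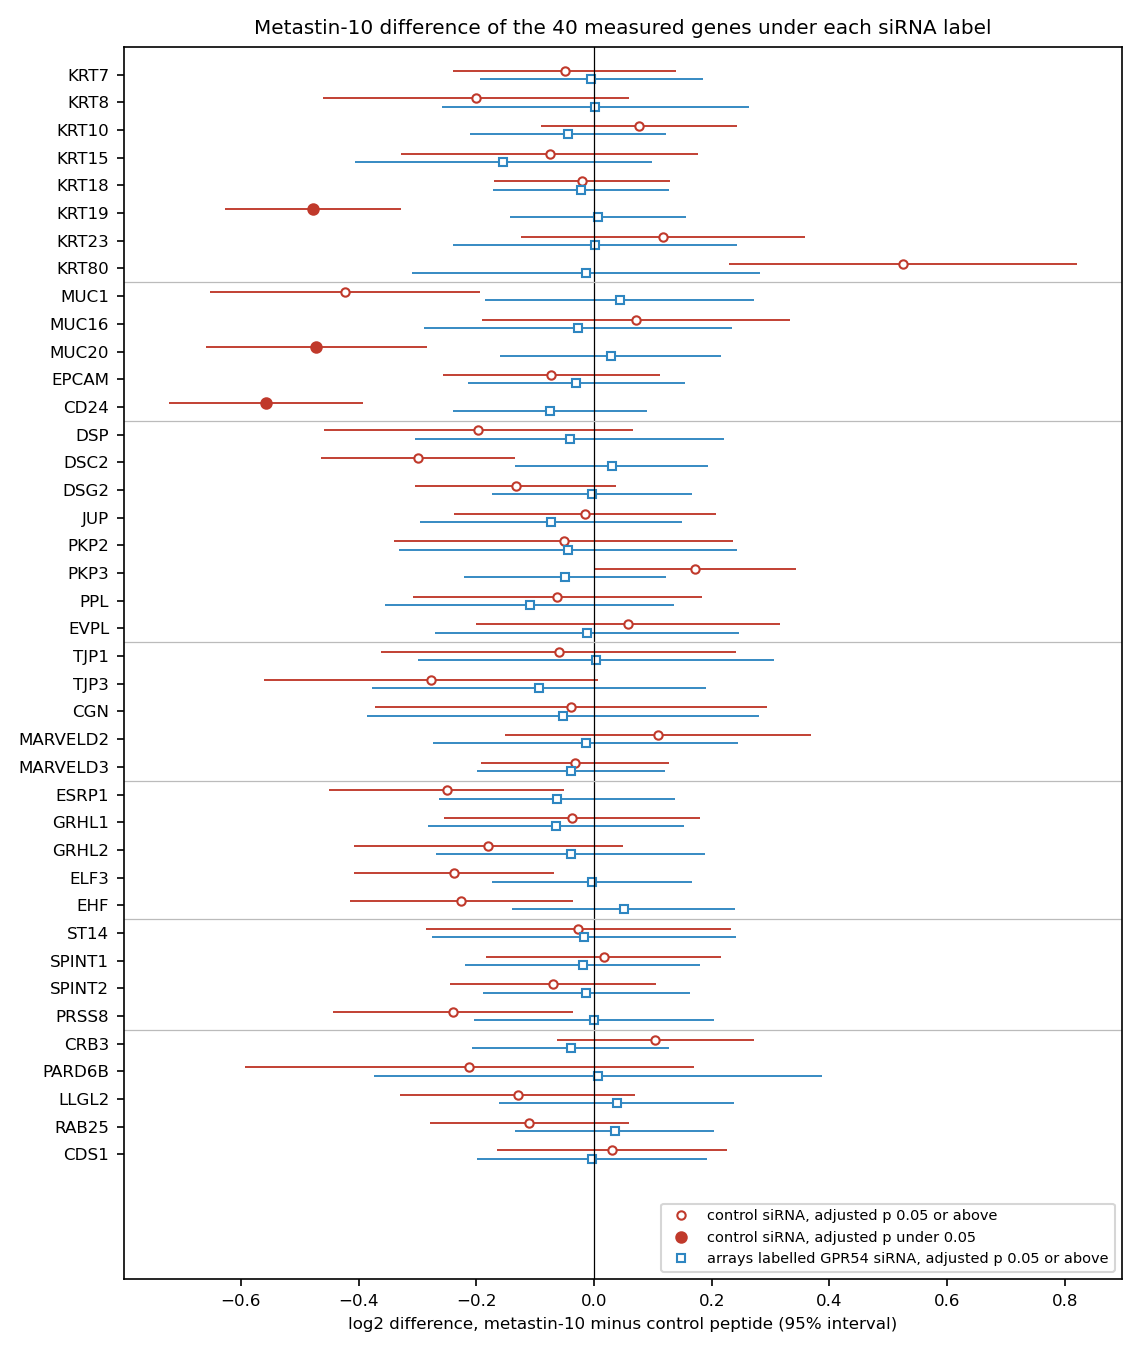
Log2 difference, metastin-10 minus control peptide, of the 40 measured genes under control siRNA (red circles) and in the arrays labelled GPR54 siRNA (blue squares), with 95% intervals; filled points have an adjusted p under 0.05, and grey lines separate the role groups. KRT19, MUC20 and CD24 are filled and lower under control siRNA, and the blue points stay between -0.15 and 0.05.

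Whether the peptide difference itself depended on the siRNA label is what the interaction tests. It gave 0 members past the threshold, where 0.106% of all genes passed, and 7 members had an unadjusted p under 0.05, beside 6.28% of all genes (1242 of 19775). KRT19 had an interaction of 0.48 (95% interval 0.27 to 0.70, adjusted p = 0.174), CD24 of 0.48 (0.25 to 0.72, adjusted p = 0.228), MUC20 of 0.50 (0.23 to 0.77, adjusted p = 0.305), MUC1 of 0.47 (0.14 to 0.79, adjusted p = 0.581) and DSC2 of 0.33 (0.10 to 0.56, adjusted p = 0.585). KRT80 had -0.54 (-0.96 to -0.12, adjusted p = 0.64). So a dependence on the siRNA label was not established for any member in this fit. KRT19 and CD24 passed with array weights (adjusted p of 0.0306 and 0.0327) and with a trended, robust variance (6e-04 and 0.0367), and KRT19 passed with dim probe sets left out (0.0344).

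With metastin-10 present, 5 members were higher in the arrays labelled GPR54 siRNA than under control siRNA: KRT19, CD24, MUC20, MUC1 and DSC2. None passed as lower in this fit. Over all genes 0.966% were higher and 0.0708% lower. This comparison uses the same 3 arrays of control siRNA with metastin-10 as the comparison above, so the pair are not independent. KRT19 was 1.51-fold higher (0.59, SE 0.07, adjusted p = 0.00165) and CD24 1.51-fold (0.60, SE 0.08, adjusted p = 0.00297). MUC20 was 1.59-fold higher (0.67, SE 0.09, adjusted p = 0.0034), MUC1 1.49-fold (0.57, SE 0.11, adjusted p = 0.0307) and DSC2 1.31-fold (0.39, SE 0.08, adjusted p = 0.0412).

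In each of these 5 genes all 3 arrays labelled GPR54 siRNA with metastin-10 lay above the 3 of control siRNA with metastin-10. The labels did not overlap in 11 of 40 members, beside 17.5% of all genes, and 9 members had an unadjusted p under 0.05, beside 13.1% of all genes. KRT80 was -0.51 (SE 0.14, adjusted p = 0.173), and passed as lower with an indicator of replicate 3 (0.0383) or with array weights (0.0466). Others short of the threshold were PRSS8 0.27 (adjusted p = 0.329), ELF3 0.23 (adjusted p = 0.312) and RAB25 0.22 (adjusted p = 0.353). RAB25 in the arrays labelled GPR54 siRNA was 9.98, 10.00 and 9.87 with control peptide and 10.03, 10.00 and 9.93 with metastin-10. In the tight junction group TJP3 came nearest, at 0.24 (adjusted p = 0.576), with overlapping arrays. The member median was 0.06, with 25 of 40 above 0, beside 0.00074 over all genes.

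KRT19, CD24 and MUC20 kept the call without any 1 array (adjusted p up to 0.0265). MUC1 lost it without any 1 of 7 arrays (highest adjusted p 0.156): control siRNA with control peptide replicate 1 or 2, control siRNA with metastin-10 replicate 1, 2 or 3, and, labelled GPR54 siRNA, metastin-10 replicate 1 or 2. DSC2 lost it without any 1 of the 12 (0.0528 to 0.187), and also when arrays were centred on their medians (0.0528). With only the 6 arrays compared, no member passed (0.0706 for MUC20, the lowest of the 5, to 0.307 for DSC2).

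With control peptide, no member passed between the siRNA labels (limma, 0 at an unadjusted p under 0.05), and 0% of all genes passed, with 553 of 19775 (2.8%) at an unadjusted p under 0.05. The range was -0.25 (PARD6B) to 0.19 (KRT23), with a median of 0.03 beside 0.02 over all genes. KRT19 was 0.11 (95% interval -0.04 to 0.26), CD24 0.12 (-0.05 to 0.28) and MUC20 0.17 (-0.02 to 0.35), all with an adjusted p of 1. The siRNA labels did not overlap in 6 of 40 members (KRT19, CD24, MUC20, PKP3 and CRB3 higher and EHF lower under the GPR54 siRNA label), beside 9.23% of all genes.

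**Figure D3:**
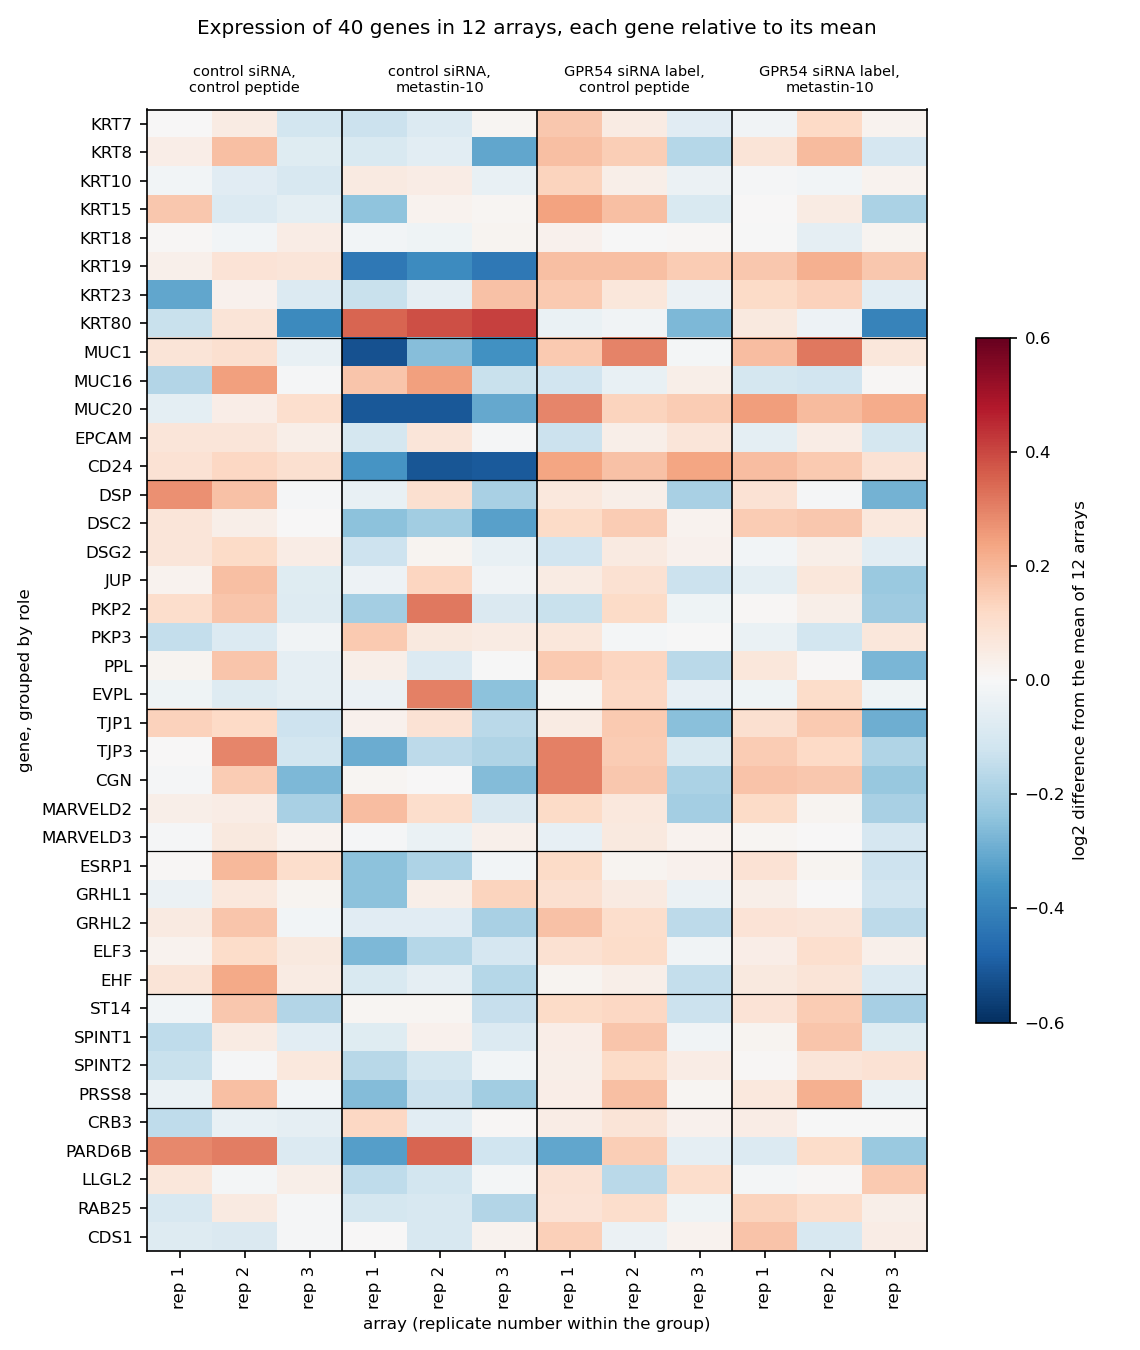
Expression of the 40 measured genes (rows, grouped by role) in the 12 arrays (columns, by group and replicate number), as the log2 difference from the gene's mean over the 12 arrays; red is higher and blue lower. The blue cells of KRT19, MUC20, CD24 and MUC1 and the red cells of KRT80 fall in the 3 arrays of control siRNA with metastin-10, while rows such as CGN, TJP1 and KRT8 are blue in replicate 3 of all 4 groups.

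Other probe sets of the same genes show how far a call rests on 1 probe set. The 40 members have 86 probe sets, and 24 members have more than 1. Among the chosen probe sets 4 end in _x_at and 10 in _s_at, kinds whose probes can match several transcripts. Of the 46 probe sets not chosen, 33 had the sign of the chosen one in the metastin-10 comparison under control siRNA, 2 passed and none passed with the opposite sign. In the comparison of siRNA labels with metastin-10, 31 had the same sign, 4 passed and none passed opposite.

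CD24 has 6 probe sets, all below 0 under metastin-10. The second brightest was 9.98, 9.99 and 10.05 with control peptide and 9.40, 9.43 and 9.57 with metastin-10 under control siRNA (-0.54, adjusted p = 0.00915), and the third was 8.46, 8.45 and 8.32 against 7.53, 7.96 and 7.66 (-0.69, adjusted p = 0.0215). The remaining 3 were at -0.43, -0.49 and -0.51 with adjusted p of 0.0847 to 0.469. The brightest CD24 probe set is of a kind (_x_at) whose probes can match other transcripts, and all 6 are of that kind or _s_at, so copies related to CD24 cannot be told apart here.

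KRT19 has a second probe set, at a mean of 4.99 against 12.2 for the first, which was 4.86, 4.93 and 5.00 with control peptide and 4.93, 5.25 and 5.12 with metastin-10 (0.17, adjusted p = 0.614), so the KRT19 call rests on 1 probe set. With the mean of both, KRT19 was -0.15 with an adjusted p of 0.359. MUC20's second probe set was 7.61, 7.78 and 7.83 against 7.03, 6.99 and 7.53 (-0.56, adjusted p = 0.108), while its 2 dimmer ones were at -0.14 and -0.10, and the mean of all 4 had an adjusted p of 0.0739. MUC1's second probe set was 6.85, 7.10 and 6.77 against 6.24, 6.37 and 6.31 (-0.60, adjusted p = 0.0834). DSC2's second was 6.81, 7.05 and 7.27 against 6.20, 6.45 and 6.75 (-0.58, adjusted p = 0.116), and between the siRNA labels with metastin-10 it was 0.68 (adjusted p = 0.0492). The 2 dimmer probe sets of DSC2 were at -0.11 and -0.36 under metastin-10 with control siRNA (limma adjusted p of 0.931 and 0.559), with overlapping arrays.

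**Figure D4:**
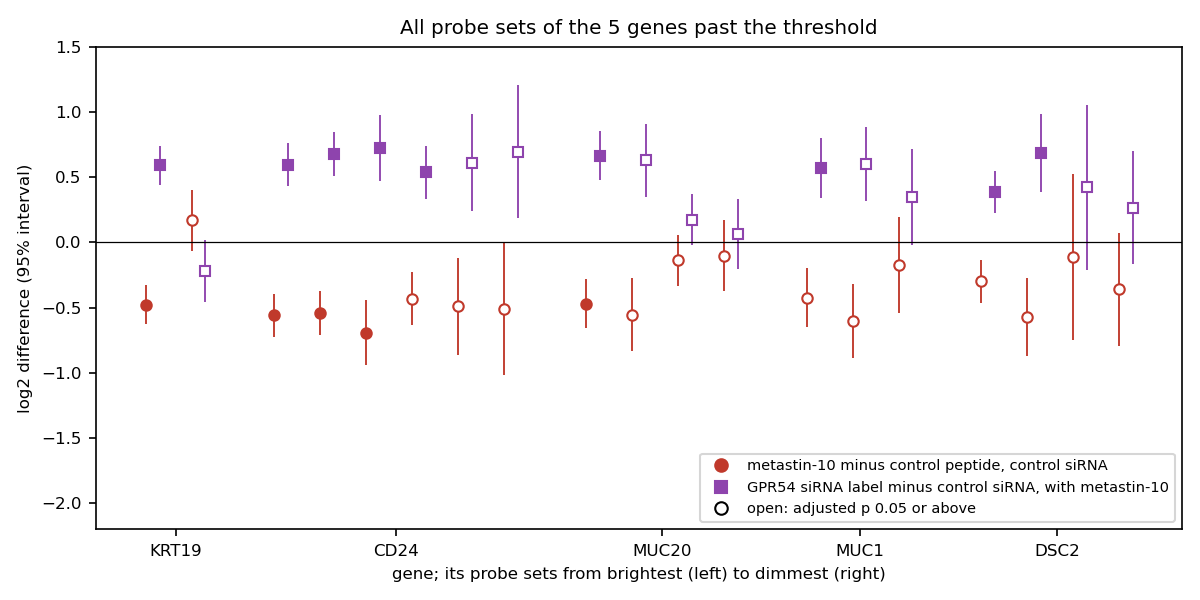
Log2 differences with 95% intervals of every probe set of KRT19, CD24, MUC20, MUC1 and DSC2, from brightest to dimmest in each gene, for metastin-10 minus control peptide under control siRNA (red circles) and for the GPR54 siRNA label minus control siRNA with metastin-10 (purple squares); open points have an adjusted p of 0.05 or above. Only the dim second probe set of KRT19 lies on the other side of 0, at 0.17 and -0.22.

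A separate axis ran through the members. In a fit of group and an indicator of replicate 3, 6.96% of all genes were lower in replicate 3 and 8.74% passed in either direction. Among the members, read by their brightest probe sets, none passed as higher and 7 passed as lower. They were CGN (-0.35, adjusted p = 0.00197), TJP1 (-0.31, adjusted p = 0.00399), MARVELD2 (-0.26, adjusted p = 0.00663), DSP (-0.25, adjusted p = 0.0108), KRT8 (-0.25, adjusted p = 0.0131), ST14 (-0.24, adjusted p = 0.0156) and GRHL2 (-0.20, adjusted p = 0.0352). The tight junction group gave 3 of these 7. An indicator of replicate 1 or of replicate 2 in its place gave 0 members and 0 genes. Other probe sets of members, not in this count, could go the other way. The third brightest of EHF was 8.13 to 8.54 in replicate 3 and 6.98 to 7.52 in the other arrays. A dimmer one of PKP2 was 7.16 to 7.36, against 5.88 to 6.31. The second of TJP1 (7.43 to 7.56 against 7.31 to 7.70) and of MARVELD2 (6.71 to 7.02 against 6.44 to 6.88) overlapped. That of ST14 was mostly lower (8.70 to 8.81 against 8.80 to 9.08).

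CGN was 7.12, 7.13, 7.20 and 7.16 in the 4 replicate 3 arrays, and its lowest level in the other 8 arrays was 7.38, so replicate 3 did not overlap them. None of the 7 genes passed in any comparison of peptide or siRNA. The member median was -0.08 in replicate 3, beside -0.01 over all genes. The spike and beta-actin values given above moved with the same arrays; their part in these differences was not tested.

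**Figure D5:**
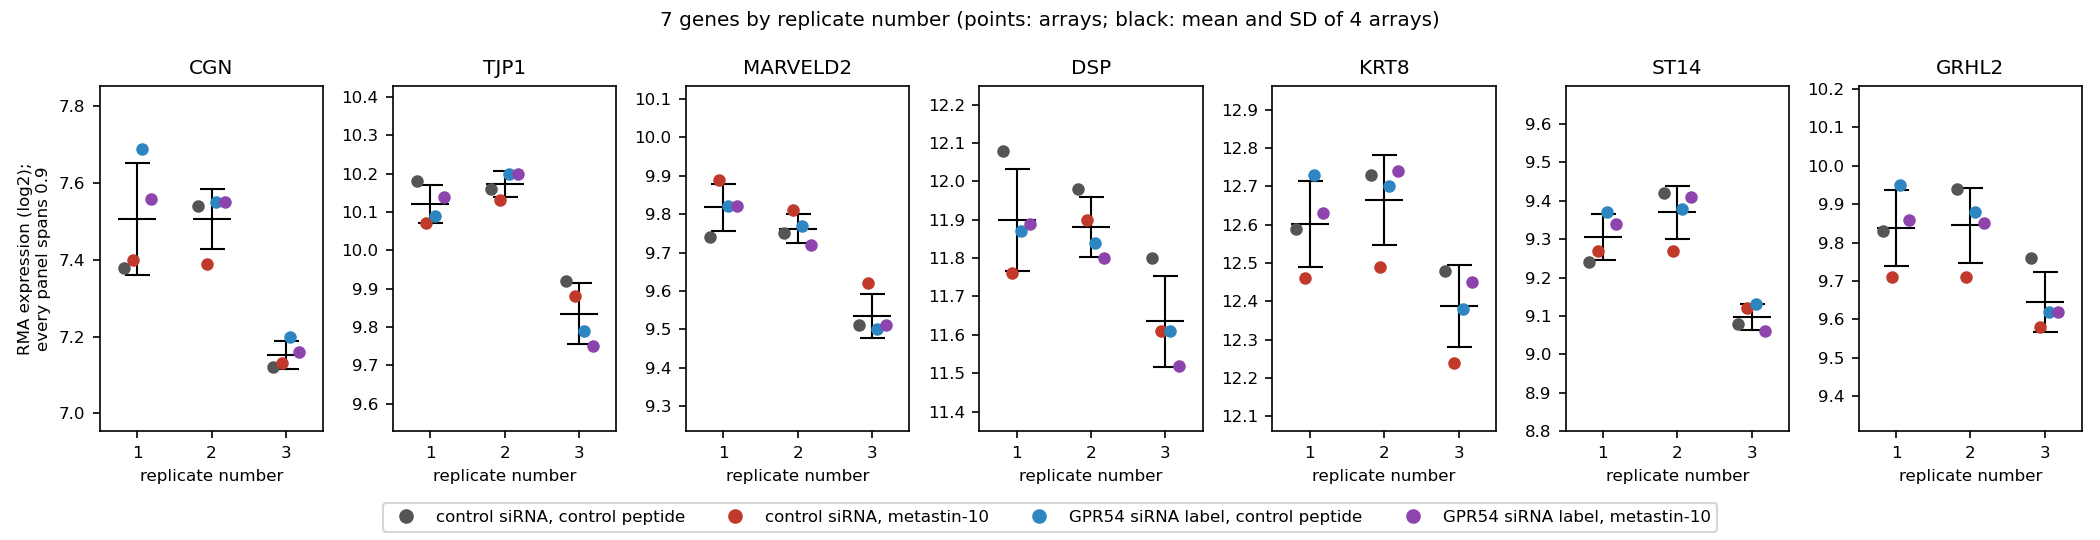
RMA expression (log2) of the brightest probe set of each of the 7 genes lower in replicate 3, by replicate number. Points are arrays coloured by group, and black bars give the mean and SD of the 4 arrays of a number. The replicate 3 arrays of CGN, all between 7.12 and 7.20, lie below the other 8.

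A further 86 genes of the same pathway were measured (other keratins, mucins, plaque and junction scaffold genes, epithelial transcription factors, proteases and polarity genes). With metastin-10 under control siRNA, 2 of them passed as lower and none passed as higher, beside 0.531% and 0.0759% of all genes. Their median difference was 0.00, with 44 of 86 above 0. KLF4, a transcription factor of epithelial differentiation, was 7.14, 7.20 and 7.05 with control peptide and 6.62, 6.70 and 6.61 with metastin-10 (-0.49, SE 0.08, adjusted p = 0.0176). TMPRSS2, a membrane serine protease, was 9.43, 9.53 and 9.46 with control peptide and 9.12, 9.08 and 8.94 with metastin-10 (-0.43, SE 0.08, adjusted p = 0.0434). The groups did not overlap in either gene, as in 19.6% of all genes in this comparison.

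Under the GPR54 siRNA label, KLF4 was 7.17, 7.21 and 7.12 with control peptide and 7.26, 7.21 and 7.11 with metastin-10, and TMPRSS2 was 9.54, 9.46 and 9.45 against 9.52, 9.58 and 9.41. Between the siRNA labels with metastin-10 both were higher under the GPR54 label (limma, KLF4 0.55, adjusted p = 0.00575, and TMPRSS2 0.45, adjusted p = 0.0253). No other of the 86 passed there, where 0.966% of all genes passed as higher. None of the 86 passed in the remaining comparisons, the interaction included. The KLF4 call under control siRNA was lost without any 1 of 5 arrays (control siRNA with control peptide replicate 1 or 2, or any of the 3 with metastin-10; highest adjusted p 0.11). The TMPRSS2 call was lost without any 1 of 11, that is, all but metastin-10 replicate 3 of the arrays labelled GPR54 siRNA (highest 0.23). Between the siRNA labels with metastin-10, KLF4 kept its call without any 1 array, while TMPRSS2 lost it without any 1 of 6 (the 3 of control siRNA with metastin-10 and, labelled GPR54 siRNA, control peptide replicate 2 and metastin-10 replicates 1 and 2; highest 0.136). With only the 6 arrays compared neither passed in this comparison (0.108 for KLF4 and 0.244 for TMPRSS2) or under control siRNA (0.11 and 0.168).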

How the data were processed

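The authors deposited log2 values, 1 column an array. They come from RMA, per the submitters' processing notes, a method that subtracts background, gives all arrays the same distribution by quantiles and fits 1 value to a probe set; the software used is not given in the sources used here. Per the labels' protocols, total RNA from RNeasy columns was labelled by one-cycle in vitro transcription. After RMA, a change shared by most genes is hidden, and array medians were 5.13 to 5.22. No scanner files or detection calls were used here, so background is unknown and dim fold changes may be compressed.

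Of 54675 probe sets, 62 control probe sets were left out and 54613 tested without a filter. Names came from the platform annotation: 41091 had 1 gene, 1801 had several and 11721 were unlisted, which left those unnamed here. The brightest probe set stood for a gene. Tests used limma 3.58.1 (R 4.3.3) with a mean for each of the 4 groups, all 12 arrays in the fit (8 residual degrees of freedom), 5 two-sided contrasts, Benjamini-Hochberg adjustment over the 54613 and a threshold of 0.05. The fit was tested on simulated data. The members and all lists were chosen with earlier results of these data known. Array values are given for members past the threshold in any contrast and then, up to 12 members, for those with the smallest p; in each role group the member with the smallest p is named, and of the other pathway genes those past the threshold. Fold changes are 2 to the power of the log2 difference.

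The labels number the arrays 1 to 3 in each group. Deviations from the group means were correlated between arrays of the same number. The correlations were 0.17 to 0.44 for the peptides under control siRNA and 0.26 to 0.52 for the peptides in the arrays labelled GPR54 siRNA. For the siRNA labels they were 0.11 to 0.54 with control peptide and -0.15 to 0.26 with metastin-10. In the first 3 of these comparisons replicate 3 had the highest value. Arrays of different numbers were not compared, so these values cannot tell pairing by number from replicate 3 standing apart. Alternatives were the replicate number as a block, replicate 3 as a covariate or left out, only the groups compared, other choices of probe set, a filter on level, centring, array weights, a trended and robust variance, and leaving out each array.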

Additional observations from a re-analysis of the deposited data

How the results depend on the processing

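No member value that passed changed sign under an alternative. With the replicate block, 4 members passed for metastin-10 under control siRNA, against 3 (MUC1 was added), and the same 5 passed for the siRNA labels with metastin-10; it changed no other member call in the 5 comparisons. For metastin-10 under control siRNA, 0 members passed with replicates 1 and 2 only, 0 with only the groups compared and 1 with the mean of all probe sets of a gene. For the siRNA labels with metastin-10, 3 passed with replicates 1 and 2 only, 0 with only the groups compared, 3 without probe sets ending in _x_at or _s_at (28 members then measured) and 8 with array weights, which added KRT80, ELF3 and PRSS8. With replicate 3 as a covariate KRT80 was added in both comparisons, and with probe sets above the median level DSC2 was added for metastin-10 under control siRNA. For the interaction, 1 passed with probe sets above the median level, 2 with array weights and 2 with the trended and robust variance, against 0. Leaving out each array in turn gave 1 to 3 members for metastin-10 under control siRNA and 3 to 4 for the siRNA labels with metastin-10. With replicate 1 or replicate 2 as the indicator in place of replicate 3, 0 members passed, against 7. Leaving out replicates and fitting only the groups compared lowers the residual degrees of freedom; the cause of the other changes was not tested. Over all genes, metastin-10 under control siRNA gave 120 calls, against 202 under the replicate block, 252 after adjusting for replicate 3, 75 with replicates 1 and 2 only, 40 with only the groups compared, 214 with probe sets above the median level, 226 with array weights and 209 with the trended and robust variance. The number of arrays limits precision, and signal over background could not be read from RMA values.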

Other observations

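Genes next to the members in function gave a few calls of their own. Among 18 measured claudins and occludin, CLDN1, a sealing claudin, was 1.49-fold higher with metastin-10 under control siRNA (0.58, SE 0.10, limma adjusted p = 0.0237) and 1.44-fold lower in the arrays labelled GPR54 siRNA than under control siRNA with metastin-10 (-0.52, adjusted p = 0.0335). No other of the 18 passed in these comparisons, which share the arrays of control siRNA with metastin-10. Over all genes, 0.0759% passed as higher in the first of these comparisons and 0.0708% as lower in the second. OCLN, occludin, differed by 0.13 (SE 0.09, adjusted p = 0.639) with metastin-10 under control siRNA.

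Among 15 measured cadherins, vimentin and factors of epithelial-mesenchymal transition, S100A4, a calcium-binding protein often used as a mesenchymal marker, was 1.35-fold lower with metastin-10 under control siRNA (-0.44, SE 0.07, adjusted p = 0.0168), and no other passed. CDH1, the epithelial cadherin, differed by -0.18 (SE 0.08, adjusted p = 0.433) and VIM, vimentin, by -0.32 (SE 0.10, adjusted p = 0.237). Between the siRNA labels with metastin-10, S100A4 (0.58, adjusted p = 0.00195) and VIM (0.55, adjusted p = 0.022) were higher under the GPR54 label. None of these genes passed between the peptides in the arrays labelled GPR54 siRNA. Over all genes, 0.531% passed as lower with metastin-10 under control siRNA, and 0.966% as higher between the siRNA labels with metastin-10.

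Later listed starts of DSC2 and CD24 held other matches than the first, and the second of MUC1 held the same letters as its first. The second listed start of DSC2 held ACGTG 3 times, at -223, -198 and -173 bases from the start, and the third listed start of CD24 held CAGGTG at -249 and GGAATG at -130, while the second of CD24 held none of the motifs. These are descriptions of letters, and no readout of these data bears on them.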
